A study of Rattus norvegicus with 24 samples.

Results

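The genes described here are 5 genes of inflammation and leukocyte recruitment, chosen by their Ensembl numbers out of the 32883 genes of the deposited rat tables. They are Tlr4 (ENSRNOG00000010522), Il1b (ENSRNOG00000004649), Ccl2 (ENSRNOG00000007159), Icam1 (ENSRNOG00000020679) and Vcam1 (ENSRNOG00000014333). All 5 are in both tables, and none has a mean normalized count below 10 in either ventricle, so all entered the tests. A normalized count is the number of reads on a gene divided by 1 scaling factor per library. The symbols come from the rule that chose the genes, since the files hold numbers alone and the RefSeq table at hand pairs no Ensembl number with a symbol.

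Heart tissue was sampled from 12 animal numbers of rats of strain WI, 6 in the group labelled CTL (read as control) and 6 in the group labelled DAAO. DAAO usually stands for D-amino acid oxidase, which breaks down D-amino acids with release of hydrogen peroxide and serves as a chemogenetic source of oxidative stress. For each number there is a library of left ventricle with septum and a library of right ventricular free wall, which gives 4 groups of 6. The labels give no age, sex, dose, duration, vector or promoter for the enzyme, and they do not say what CTL animals received. The labelled tissue could not be checked against its defining markers, because the numbers of those genes are not paired with names. Left ventricular libraries held 15363539 to 23263897 recovered reads and right ventricular ones 13280705 to 18777633.

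Every DAAO number is higher than every CTL number, so group and anything that runs with the numbers cannot be told apart. Names such as C_7000 (a CTL animal) and D_7135 (a DAAO animal) follow the column headers. The CTL numbers C_7000 and C_7005 lie apart from the other CTL numbers, C_7118 to C_7123, which lie next to the DAAO numbers, D_7135 to D_7146. Results are therefore given with and without C_7000 and C_7005.

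The 5 genes cover successive steps by which blood leukocytes enter injured tissue. TLR4 is a receptor of innate immunity that senses bacterial lipopolysaccharide and molecules set free by damaged cells, and it signals through NF-kB. IL-1β is a cytokine made mostly by macrophages and monocytes as a precursor that caspase-1 cuts. CCL2 is the chemokine that draws monocytes bearing the receptor CCR2. ICAM1 and VCAM1 are adhesion molecules on activated endothelium, which bind the leukocyte integrins LFA-1 and VLA-4. In the heart these proteins are known from studies of infarction, pressure overload and heart failure.

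The 2 adhesion genes are shown by the 250 bases before their annotated starts, because of all pairs of the 5 genes they had the highest correlation over the 24 libraries pooled. The sequences are RefSeq's for the build GRCr8, which differs from the build Rnor_6.0 of the files, and they were matched by symbol. Of the 5 genes, 4 had an entry, and Ccl2 had none. Capitals mark matches to NF-kB type motifs searched on both strands, and both windows are printed 5′ to 3′ on the gene's strand. The Icam1 window lies at chr8:27829595-27829844 on the + strand, and the Vcam1 window at chr2:206742784-206743033 on the - strand.
Icam1: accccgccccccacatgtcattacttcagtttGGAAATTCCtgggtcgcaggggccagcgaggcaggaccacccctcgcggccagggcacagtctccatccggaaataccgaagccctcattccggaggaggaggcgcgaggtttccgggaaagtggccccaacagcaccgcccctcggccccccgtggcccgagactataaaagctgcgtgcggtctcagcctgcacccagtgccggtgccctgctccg
Vcam1: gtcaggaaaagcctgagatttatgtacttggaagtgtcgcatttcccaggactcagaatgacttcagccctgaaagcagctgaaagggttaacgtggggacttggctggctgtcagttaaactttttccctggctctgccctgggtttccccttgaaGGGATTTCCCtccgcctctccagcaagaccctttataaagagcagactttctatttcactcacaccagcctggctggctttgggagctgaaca
The Vcam1 window held 1 match to the 10-base kappaB consensus, GGGATTTCCC, which began 93 bases before the start. Of all 27457 promoter windows of this length, 6.41% held such a match. The Icam1 window held none, but it held GGAAATTCC 218 bases before the start, a string found in 0.288% of all windows and searched for after the sequence was seen. TATAAA on the gene's strand was found in the windows of Icam1, Vcam1 and Il1b and in 8.38% of all windows, and the Tlr4 window held none of these 3 motifs. These matches describe letters in a window and are not evidence of binding.

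Ccl2 was the member that rose in DAAO hearts in both ventricles, to 2.48 times its CTL level in the left and 2.40 times in the right by the fitted fold. Icam1, Il1b, Tlr4 and, in the left ventricle, Vcam1 were also higher in DAAO on average, but they did not pass the test, and CTL animals C_7000 and C_7005 lay at DAAO levels for most of them. The median log2 fold change of the 5 genes was 0.57 in the left ventricle and 0.35 in the right, beside 0.01 and 0.02 over all genes tested. Changes were tested with limma on log2(normalized count + 1), with p-values adjusted by Benjamini-Hochberg over all 14041 left or 13489 right genes tested and a threshold of 0.05. By this test 1 of the 5 genes rose in each ventricle and none fell, while 17.3% of all genes tested rose in the left ventricle and 12.5% in the right. A share of 1 in 5 is near that background, so by the number of calls the members did not stand out. No member had all DAAO above all CTL libraries in either ventricle, a separation seen for 7.58% of all genes tested in the left and 4.46% in the right. In whole tissue, more cells of a type and more RNA per cell cannot be told apart.

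**Figure D1:**
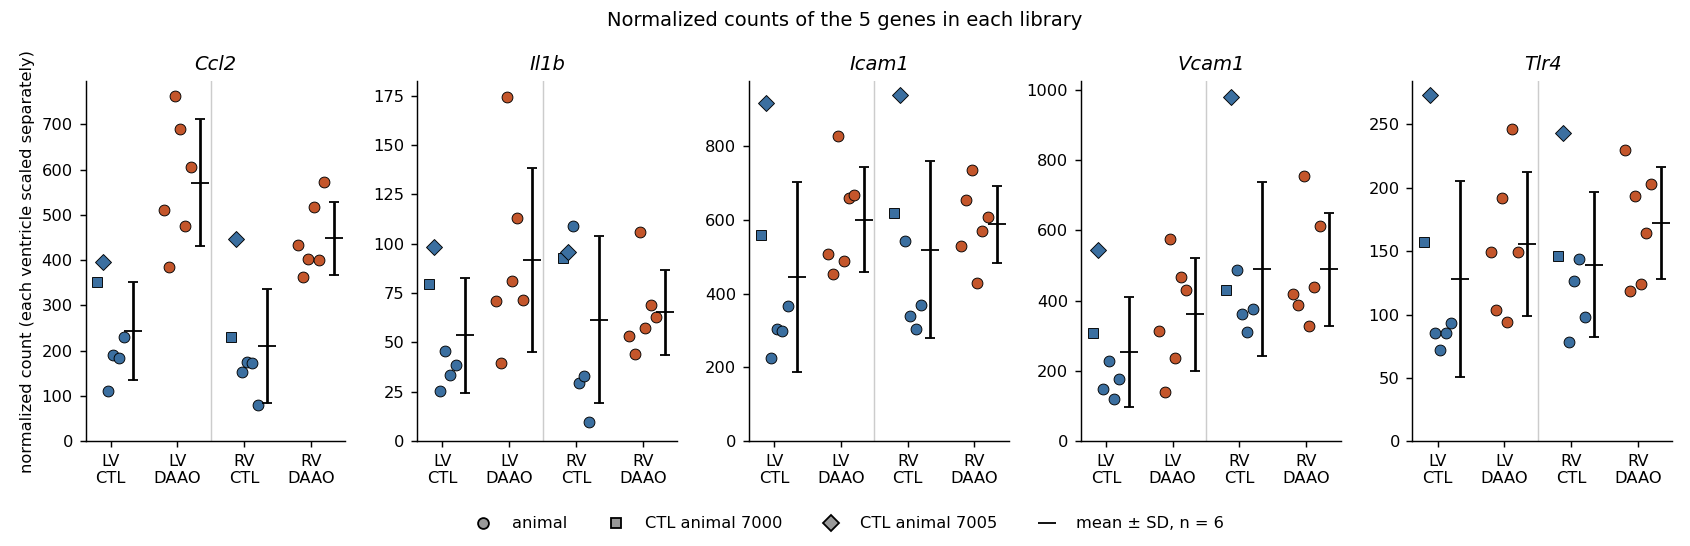
Normalized counts (linear axis from 0) of the 5 genes in all 24 libraries, by ventricle (LV, RV) and group, with the mean ± SD of 6 libraries beside the points and separate symbols for C_7000 and C_7005. Ccl2 in DAAO lies above most CTL libraries in both ventricles, while C_7005 is the highest library for Icam1 and Tlr4 in both ventricles and for Vcam1 in the right.

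Tlr4, the sensor, did not pass the test in either ventricle. Its left ventricular normalized count ranged in CTL from 72.1 to 273 with a median of 89.5, and in DAAO from 94.2 to 247 with a median of 149. The groups overlapped through CTL animals C_7000 and C_7005, at 158 and 273, whereas the other CTL libraries lay between 72.1 and 93.6, below all DAAO libraries. The left log2 fold change was 0.38 (limma adjusted p = 0.381, SE 0.32; 95% interval -0.32 to 1.08). Right ventricular Tlr4 ranged from 78.1 to 243 (median 135) in CTL and from 119 to 230 (median 179) in DAAO. There 4 of 6 CTL libraries lay above the lowest DAAO library, and the log2 fold change was 0.35 (limma adjusted p = 0.307, SE 0.25; 95% interval -0.18 to 0.89).

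Il1b, the cytokine, rested on the fewest reads of the 5 genes, 21 to 185 per library in the left and 9 to 133 in the right ventricle. Left ventricular normalized counts ranged from 25.5 to 98.5 (median 42.1) in CTL and from 39.5 to 174 (median 76.5) in DAAO. The DAAO libraries of D_7138 and D_7143 lay above every CTL library, that of D_7137 lay among the low CTL libraries, and the groups overlapped. The left log2 fold change was 0.78 (limma adjusted p = 0.116, SE 0.37; 95% interval -0.02 to 1.59). That call turned on single animals: limma adjusted p was 0.0356 without C_7005 and 0.0461 without D_7137. These were the highest CTL and the lowest DAAO library, so leaving either out had to raise the estimate. Of the 12 single removals only these 2 passed, and without D_7138 the value was 0.57 (limma adjusted p = 0.240). On the right side the CTL libraries spread from 9.51 to 109 (median 63.0) and enclosed all DAAO libraries, 44.3 to 106 (median 60.0). Mean counts (± SD, n = 6 each) were 61.6 ± 42.3 in CTL against 65.4 ± 21.5 in DAAO. The log2 fold change of 0.44 (limma adjusted p = 0.534, SE 0.50) fell to 0.0082 without C_7123, the lowest library. On recovered reads it was 0.099 in edgeR and 0.088 in DESeq2.

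Ccl2, the monocyte chemokine, ranged in the left ventricle from 112 to 396 (median 210) in CTL and from 384 to 761 (median 558) in DAAO. All DAAO libraries but that of D_7137 lay above every CTL library, and C_7005 exceeded D_7137 by a small margin, 396 against 384. Mean counts (± SD, n = 6 each) were 244 ± 108 and 571 ± 141, and limma gave a log2 fold change of 1.31 (SE 0.27, 95% interval 0.72 to 1.90, adjusted p = 0.00249). An exact permutation test of the same difference, two-sided and unadjusted, gave p = 0.00433. Of all genes tested in the left ventricle, 3.40% had a larger log2 fold change.

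In the right ventricle Ccl2 ranged from 80.3 to 447 (median 173) in CTL and from 363 to 573 (median 418) in DAAO. C_7005, at 447, lay within the DAAO range, and the other CTL libraries, at most at 230, lay below all DAAO libraries. Mean counts (± SD, n = 6 each) were 209 ± 126 and 448 ± 80.2, and the limma log2 fold change was 1.27 (SE 0.30, 95% interval 0.63 to 1.90, adjusted p = 0.00712). The exact permutation p was 0.0108, two-sided and unadjusted, and 4.18% of all genes tested there had a larger log2 fold change. The rise of Ccl2 stayed past the threshold in all 24 alternative fits of each ventricle, with log2 fold changes of 1.11 to 1.68 (left) and 1.03 to 1.67 (right).

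Icam1, the integrin ligand whose window is shown above, ranged in the left ventricle from 225 to 917 (median 335) in CTL and from 455 to 829 (median 583) in DAAO. C_7005 was the highest of all 12 libraries, C_7000 stood at 560 within the DAAO range, and the other CTL libraries, up to 367, lay below all DAAO libraries. The left log2 fold change was 0.57 (limma adjusted p = 0.141, SE 0.29; 95% interval -0.06 to 1.2). Without C_7005 alone it was 0.81 and passed the test (limma adjusted p = 0.00812). Leaving out the highest CTL library had to raise that value. Of the 12 single removals only this 1 passed, and without C_7118 the value was 0.41 (limma adjusted p = 0.288). Right ventricular Icam1 ranged from 304 to 940 (median 458) in CTL and from 430 to 736 (median 589) in DAAO, with 3 of 6 CTL libraries above the lowest DAAO library. The right log2 fold change was 0.27 (limma adjusted p = 0.417, SE 0.24; 95% interval -0.24 to 0.79).

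Vcam1, the other adhesion gene, ranged in the left ventricle from 121 to 544 (median 202) in CTL and from 140 to 576 (median 372) in DAAO. The ranges nearly coincided: D_7137, at 140, lay among the lowest libraries and 5 of 6 CTL libraries lay above it. The left log2 fold change was 0.55 (limma adjusted p = 0.280, SE 0.39; 95% interval -0.29 to 1.39). In the right ventricle the group means (± SD, n = 6 each) were 491 ± 247 in CTL against 489 ± 161 in DAAO. The right log2 fold change was 0.05 (limma adjusted p = 0.902, SE 0.26), and its 95% interval of -0.51 to 0.61 spans rises and falls up to about the same size. The direction of that estimate turned without C_7120, C_7121 or C_7123 or without D_7138 or D_7146, with values down to -0.087, and in DESeq2 on recovered reads, at -0.0042.

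With CTL animals C_7000 and C_7005 left out, all 5 genes rose in the left ventricle and 2 of 5, Ccl2 and Icam1, in the right. In that comparison of 4 CTL with 6 DAAO libraries, 24.3% of all genes tested rose in the left and 15.9% in the right ventricle. C_7000 and C_7005 were the highest left CTL libraries for all 5 genes. Leaving them out therefore had to raise each left fold change, so the added left calls are no separate evidence of a rise. The left log2 fold changes were 1.68 for Ccl2 (limma adjusted p = 8.39e-05, SE 0.22), 1.22 for Il1b (SE 0.34, adjusted p = 0.0102) and 1.0 for Icam1 (SE 0.18, adjusted p = 0.000738). For Vcam1 the left value was 0.99 (limma adjusted p = 0.0310, SE 0.34) and for Tlr4 it was 0.81 (SE 0.24, adjusted p = 0.0146). Ccl2, Icam1 and Tlr4 then separated all DAAO from all CTL libraries in the left ventricle, as 17.5% of all genes tested did by lying higher in DAAO. Another fit kept all 12 libraries and gave each a weight by its fit to its group. It called all 5 genes in the left ventricle, where 25.8% of all genes tested rose. Such weights are lower for libraries far from their group, so these calls are no separate evidence either. In the right ventricle that fit called 1 of the 5 genes, and 39.2% of all genes tested in either direction.

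In the right ventricle without these animals, Ccl2 rose by 1.67 (limma adjusted p = 0.000477, SE 0.22) and Icam1 by 0.61 (SE 0.18, adjusted p = 0.0226) on the log2 scale. Tlr4, at 0.62 (limma adjusted p = 0.0573, SE 0.23), Il1b, at 0.95 (SE 0.50, adjusted p = 0.162), and Vcam1, at 0.31 (SE 0.22, adjusted p = 0.300), did not pass the test. Ccl2 then separated the groups there, as 9.97% of all genes tested did in the same direction. C_7000 and C_7005 were also the highest right CTL libraries for Ccl2, Icam1 and Tlr4. Leaving them out therefore had to raise these right fold changes too, so the added right call of Icam1 is no separate evidence of a rise. For Il1b, C_7118 held the highest right ventricular value of all 12 libraries, 109, and the lowest left ventricular value, 25.5. That these 2 libraries come from the same rat was assumed, and over many genes the left one was closer to another number's right library.

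**Figure D2:**
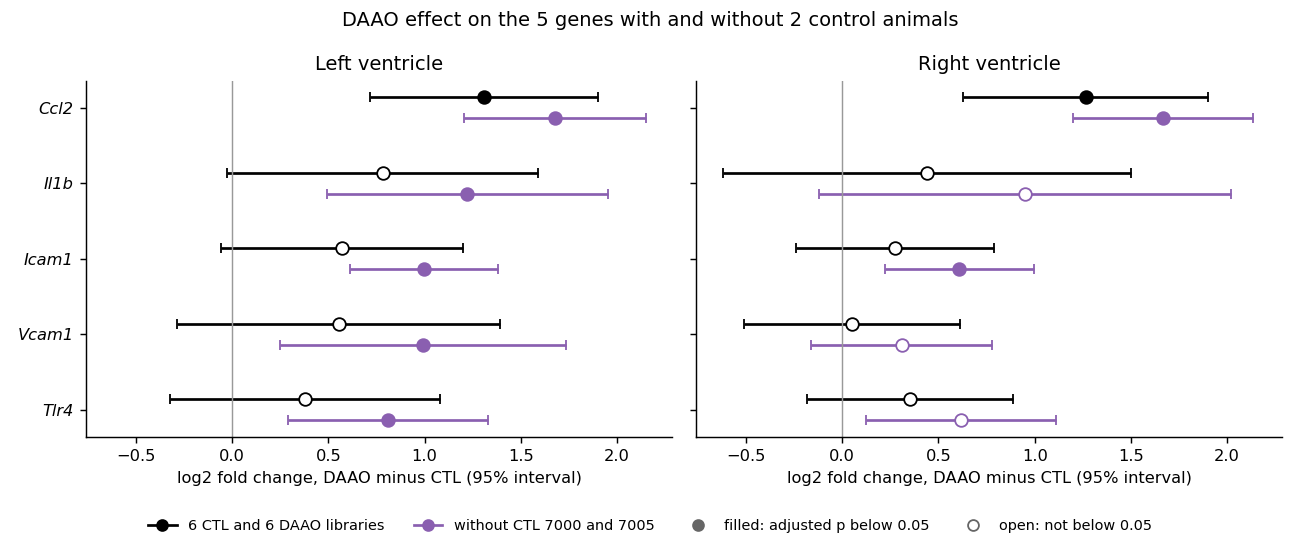
Log2 fold change of DAAO minus CTL for each gene (points) with its 95% limma interval (bars), in the left and right ventricle, for all 12 libraries (black) and without C_7000 and C_7005 (purple); filled points passed the adjusted threshold of 0.05. The interval of Ccl2 lies above 0 in every fit shown, and those of the other genes include 0 with all 12 libraries.

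In the left ventricle C_7005 held 2.21 times (Ccl2) to 3.25 times (Tlr4) the mean of C_7118 to C_7123, and in the right ventricle 2.12 times (Il1b) to 3.08 times (Ccl2). C_7000 held 1.83 to 2.23 times that mean in the left ventricle and 1.12 to 2.05 times in the right. Among DAAO animals, D_7138 was the highest of all 12 left ventricular libraries for Ccl2, Il1b and Vcam1 and among the top 3 for all 5 genes. D_7137 was the lowest DAAO library in the left ventricle for 4 of the 5 genes, the exception being Tlr4, for which D_7142 was lower. Markers of leukocytes and of endothelium could not be read in these tables, so whether cell makeup moved with these animals was not tested.

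The level of Ccl2 was also set against that of each other gene within the same library, as a log2 difference that does not depend on the scaling factor apart from the added 1. Ccl2 was taken as the gene to compare because it had the largest fold change of the 5, so these values are a description with no test. Relative to Icam1, the mean difference was higher in DAAO than in CTL by 0.74 in the left ventricle, where all 6 DAAO libraries lay above all CTL libraries, and by 0.99 in the right, where 4 of 6 did. The shifts relative to Vcam1 were 0.76 and 1.22, with 3 of 6 left and 5 of 6 right DAAO libraries above all CTL libraries. Against Tlr4 they were 0.93 and 0.91, with 5 of 6 DAAO libraries above all CTL libraries in each ventricle.

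Against Il1b the shifts were 0.53 and 0.82, with 4 of 6 DAAO libraries above all CTL libraries in each ventricle. Without C_7000 and C_7005, the shifts relative to Icam1 were 0.68 and 1.06, and those relative to Vcam1 were 0.68 and 1.36. D_7142 had the largest Ccl2 excess over Icam1, Vcam1 and Tlr4 of all libraries in each ventricle.

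**Figure D3:**
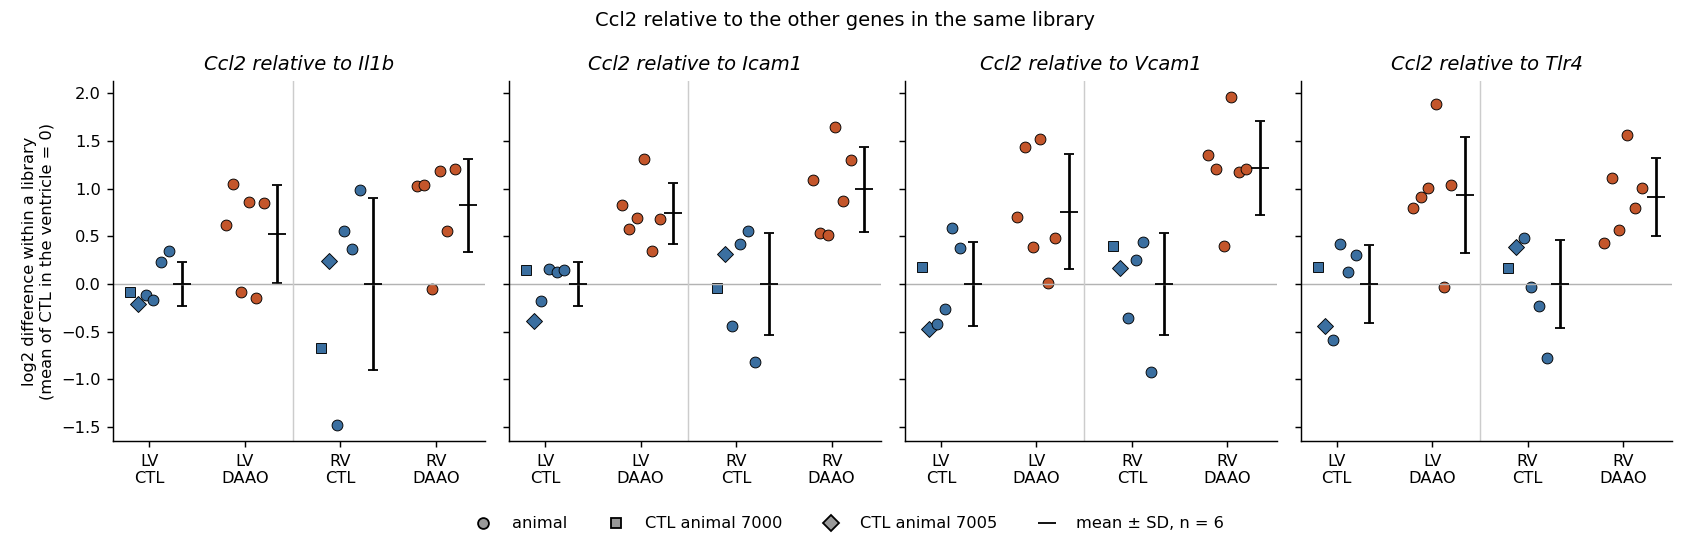
Log2 difference between Ccl2 and each of the other genes in the same library, shifted so that the CTL mean of each ventricle is 0, with mean ± SD of 6 libraries beside the points. Relative to Icam1 all 6 left ventricular DAAO libraries lie above all CTL libraries, and relative to Il1b the groups overlap in both ventricles.

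Whether the DAAO effect on these genes differed between the ventricles was tested as the left minus the right log2 fold change in 1 limma fit over 24 libraries and 13344 genes. None of the 5 genes passed that test, while 2.93% of all genes tested did, and 0 of 5 had an unadjusted p under 0.05. The largest difference was that of Vcam1, 0.50 (limma adjusted p = 0.662, SE 0.50), with a 95% interval from -0.52 to 1.53. For Ccl2 the difference was 0.04 (limma adjusted p = 0.977, SE 0.43), with a 95% interval from -0.84 to 0.93, which leaves room for a sizeable difference either way. That fit took the left and right libraries of a number as unrelated. With the animal number as a block, again 0 of 5 genes were called or had an unadjusted p under 0.05. Of all genes 10.2% were then called, and the smallest limma adjusted p of the 5 genes was 0.422, for Vcam1. The SE with the block was smaller, 0.34 for Ccl2 and 0.37 for Vcam1, so the intervals above are wider than the pairing would give.

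To set the ventricles side by side, levels were expressed as CPM, the reads of a gene per 1000000 recovered reads of the library, since the deposited tables were scaled separately. No test was made across tables. CPM sets the library totals equal. With equal totals the median log2 fold change over all genes tested was 0.21 in the left and 0.27 in the right ventricle. On the deposited scale these medians were 0.01 and 0.02, so CPM places the DAAO groups higher relative to CTL. Right ventricular Vcam1, for example, had mean normalized counts of 491 in CTL and 489 in DAAO. Vcam1 was lowest in left CTL at 13.9 ± 9.90 CPM, followed by left DAAO at 22.3 ± 11.2, right CTL at 28.9 ± 15.4 and right DAAO at 34.4 ± 12.9 (SD, n = 6 each). Neighbouring groups in that order differed by less than their SD. Icam1 levels ran from 24.3 ± 16.4 CPM in left CTL through 30.6 ± 15.0 in right CTL and 36.7 ± 11.2 in left DAAO to 40.9 ± 8.49 in right DAAO, again by steps smaller than the SD. Ccl2 fell into a low and a high level instead, with 12.4 ± 7.84 in right CTL and 13.2 ± 7.0 in left CTL against 31.2 ± 6.74 in right DAAO and 34.5 ± 9.36 in left DAAO (SD, n = 6 each).

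Tlr4 ran from 6.97 ± 4.92 CPM in left CTL through 8.21 ± 3.64 in right CTL and 9.60 ± 4.15 in left DAAO to 12.2 ± 4.12 in right DAAO (SD, n = 6 each). Il1b ran from 2.92 ± 1.84 in left CTL through 3.61 ± 2.47 in right CTL and 4.58 ± 1.66 in right DAAO to 5.66 ± 3.21 in left DAAO. For Tlr4 and Il1b neighbours in the order differed by less than their SD, whereas for Ccl2 the step between the CTL and the DAAO groups exceeded it.

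The left and right libraries of an animal number were compared within each group of 6, over 10 relations with exact permutation p-values that are not adjusted. Over all 6 DAAO animals Il1b had the highest Pearson r, 0.951 (permutation p = 0.00694), with Spearman rho = 0.943 (permutation p = 0.0167). Without its most distant animals, D_7138 and D_7137, r over the few left was 0.765, the lowest such value of the 5 genes, so its rank was not kept. Vcam1 in DAAO gave r = 0.746 (permutation p = 0.0986) and rho = 0.886 (permutation p = 0.0333), and r = 0.780 without D_7137 and D_7138. Ccl2, Icam1 and Tlr4 in DAAO gave r of 0.531, 0.572 and 0.587, none with a permutation p under 0.05. Without D_7137 and D_7138, or D_7143 and D_7142 for Tlr4, those values were 0.832, 0.851 and 0.772.

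In CTL the relations of Icam1, Vcam1 and Tlr4, at r of 0.748, 0.817 and 0.787 (permutation p = 0.0819, 0.05 and 0.0681), did not stay positive without the most distant animals. Without these, C_7005 and C_7000, or C_7005 and C_7121 for Vcam1, r was -0.711, -0.284 and -0.379. Such values rest on the few animals left, over a narrowed range, and are imprecise. For Ccl2 in CTL r was 0.566 (permutation p = 0.208), and 0.311 without C_7005 and C_7118. For Il1b in CTL r was 0.337 (permutation p = 0.522), and -0.719 without C_7005 and C_7000. Over genes with a mean of at least 10 in both ventricles, the left libraries of C_7118, C_7120 and C_7123 were closest to another number's right library. The CTL values, above all those with animals left out, therefore rest on uncertain pairings.

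**Figure D4:**
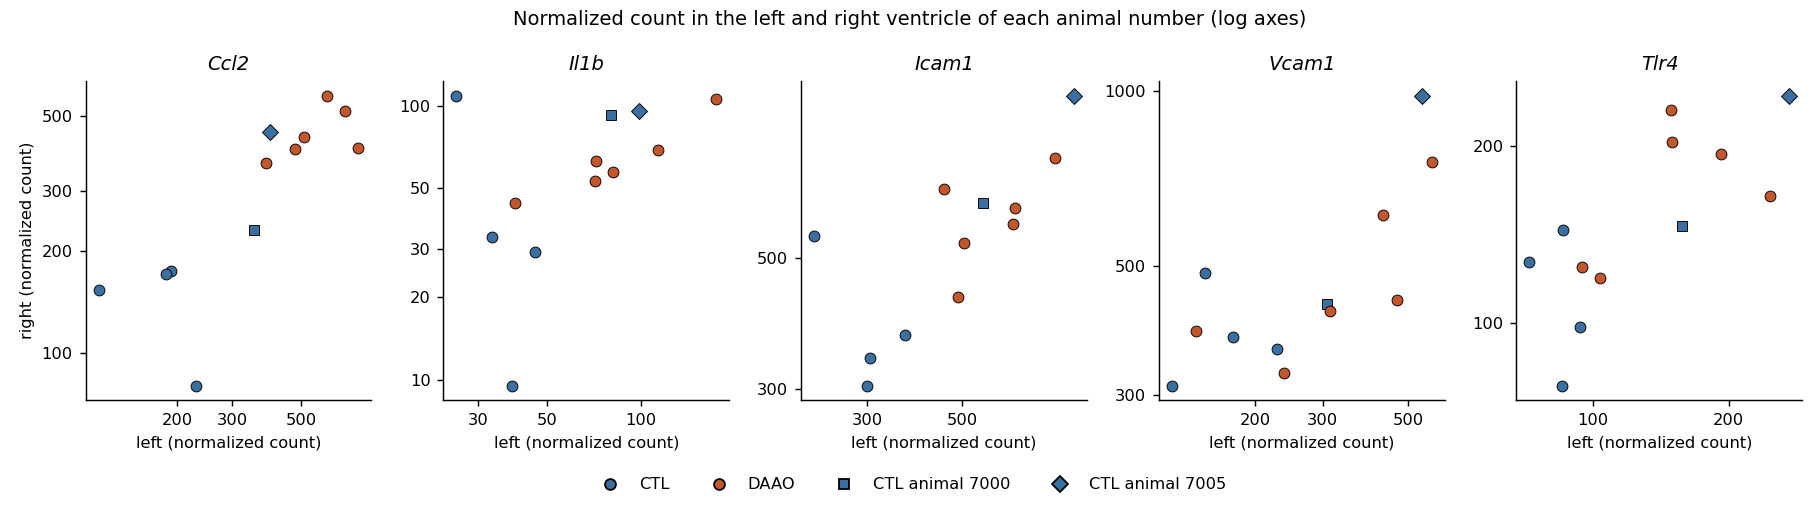
Normalized count in the right ventricle against that in the left ventricle for the 12 animal numbers, 1 panel per gene, on log axes. For Ccl2 the DAAO animals fill the upper right together with C_7005, and for Il1b C_7118 combines a high right with the lowest left value.

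Among themselves the 5 genes varied together. With each library's log2 value taken relative to the mean of its group and ventricle, Pearson r over the 24 libraries ranged from 0.513 (Il1b and Tlr4) to 0.860 (Icam1 and Vcam1), and no p is attached, since left and right libraries share animals. In the left ventricle alone all 10 pairs had r between 0.612 and 0.909, and in the right between 0.291 and 0.861. Icam1 and Vcam1 were the closest pair in the right ventricle, whereas in the left, at 0.866, 4 other pairs were closer, led by Il1b and Vcam1. Over the 13343 other genes the median r with a member lay between -0.066 and -0.051. Many other genes followed the members as closely: 524 had r above 0.8 with Icam1, 397 with Vcam1, 688 with Tlr4, 63 with Il1b and 35 with Ccl2. Vcam1 was the 227th closest gene to Icam1, and Icam1 the 66th closest to Vcam1. The closest member ranked 175th for Ccl2 (Il1b), 226th for Il1b (Icam1) and 883rd for Tlr4 (Vcam1). For Tlr4 that r of 0.762 lay below the 95th percentile over all genes, 0.805, and for the other members the closest lay above it.

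The gene nearest to Icam1 was ENSRNOG00000046699 (r = 0.937 over 24 libraries) and the gene nearest to Vcam1 was ENSRNOG00000015948 (r = 0.937). Neither passed the limma test between the groups, at log2 fold changes of 1.65 and 0.34 in the left ventricle (adjusted p = 0.168 and 0.349) and 1.28 and 0.54 in the right (adjusted p = 0.194 and 0.133). The spread within groups was wide for all members: in the left ventricle the residual SD of log2 values was 0.54 for Ccl2 and 0.77 for Vcam1, above that of 85.8% and 92.9% of all genes tested. The right ventricular residual SD ran from 0.48 for Icam1, above that of 73.6% of genes, to 0.99 for Il1b, above that of 94.0%.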

How the data were processed

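For each ventricle the authors deposited a table of normalized counts, a signal in which each library was divided by its own size factor. The submitters' processing notes name the build Rnor_6.0 and the tools DESeq2 1.26.0, STAR 2.7.0a and FastQC. Read counter, annotation and strand setting are not given in those sources, so reads shared by overlapping or similar genes are uncertain. All values above 0 were whole multiples of a library's smallest value (100% within 1e-06), so reads were recovered by division. These are not the deposited values, so the main test was limma 3.58.1 (R 4.3.3, mean-variance trend, two-sided) on log2(value + 1) for genes with a mean of at least 10. The scale understates changes of low genes. Log2 fold changes and their 95% intervals come from that fit. edgeR 4.0.16 and DESeq2 1.42.0 on recovered reads, other pseudocounts, filters, scalings and weights, each animal left out in turn, and C_7000 and C_7005 left out together were alternatives. The main fit within a ventricle and the main fit of the difference between the ventricles were tested on simulated data. The alternative fits were not. Spread between the simulated libraries was limited to less than that of several members. Left and right libraries were simulated as unrelated, so error rates for the members were not tested.

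The labels do not state that numbers are separate rats, or that a number is the same rat in both ventricles, which was assumed; p-values measure the spread between these samples. Deviations from the group means correlated between the ventricles of a number with r from 0.057 to 0.788 (median 0.547), above 0.1 for 10 of 12 numbers. For 9 of 12 numbers the right library closest to the left one was that of the same number. The exceptions were the CTL numbers C_7118 (r = 0.060), C_7120 (0.057) and C_7123 (0.254). No libraries of a group agreed within sampling noise. The members and lists were chosen with earlier results of these data known. Genes named are all members and, by likeness, the nearest gene to each of the 2 members with the highest mean over both ventricles. Lists of other pathway genes and cell type markers fixed by symbol could not be read, since the identifiers matched 0 of 47357 RefSeq genes.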

Additional observations from a re-analysis of the deposited data

Results flagged for a closer look

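In right ventricular CTL libraries, Vcam1 stood at a normalized count of 981 in C_7005, far from the other 5, which lay between 312 and 486. Of 20 groups of 6 libraries examined, this was the 1 with a value set so far apart, and chance gives about 1 in 20.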

How the results depend on the processing

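The number of the 5 genes called in the left ventricle was 1 with all libraries, 5 with library weights, where 25.8% of all genes rose, and 5 without C_7000 and C_7005 together. In the right ventricle it was 1, and 2 without those animals. Leaving out 1 animal at a time gave 1 to 3 in the left ventricle (3 without C_7005, 2 without D_7137), 1 each time in the right, and 0 each time for the difference between the ventricles. The cause was not tested. The replicate block left the 0 calls of the difference as they were, although the count over all genes moved from 391 to 1360. Log2 estimates near 0 changed sign: right ventricular Vcam1 was -0.0042 in DESeq2 and ran from -0.087 to 0.27 with 1 animal left out. The difference between the ventricles with equal totals was -0.0012 for Ccl2 and -0.022 for Tlr4. With 1 animal left out it ran from -0.11 to 0.29 for Ccl2, from -0.13 to 0.11 for Tlr4 and from -0.078 to 0.71 for Il1b. With equal totals the median log2 fold change over the tested genes became 0.21 in the left and 0.27 in the right ventricle. That scaling moved the split of all calls from 2430 higher and 2805 lower to 4325 and 1631 in the left, and from 1684 and 1890 to 3802 and 933 in the right. Il1b drops out under the filter at a mean of 100. At 9 to 185 reads per library, Il1b was the least precise.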
